A study of Mus musculus with 8 samples.

Results

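The 10 genes described here are the transcripts most often read as markers of macrophage polarization. They comprise Nos2, Cd40, Cd80 and Cd86 on the side of lipopolysaccharide (LPS), and Arg1, Mrc1, Retnla, Chil3, Il4ra and Mgl2 on the side of interleukin 4 (IL-4). They were picked by gene symbol from the expression tables of activated hepatic stellate cells (AHSC) and bone marrow-derived macrophages (BMDM), and are 10 of the 19382 symbols that the tables list together (18645 for AHSC and 17408 for BMDM). All 10 are listed in both tables.

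Macrophages exposed to LPS, a bacterial product sensed by Toll-like receptor 4, switch on NF-κB and interferon-driven genes, among them inducible nitric oxide synthase and costimulatory molecules that talk to T cells. Macrophages exposed to IL-4 signal through the IL-4 receptor and the transcription factor STAT6, and switch on arginase 1, the mannose receptor, resistin-like and chitinase-like proteins and a galactose-binding lectin. Nos2 and Arg1 compete for the same substrate, arginine, which the former turns into nitric oxide and the latter into ornithine and urea.

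The AHSC came from livers of C57BL/6 mice and were either untreated by their labels (vehicle by the study text) or exposed to 0.03 µM auranofin, a gold compound used against rheumatoid arthritis, for 12 h. The BMDM came from bone marrow of 8-week-old male C57BL/6 mice, grown with M-CSF for 7 days. All BMDM libraries, controls included, carry LPS (100 ng/mL, given 4 h ahead) and ATP (1 mM), and the auranofin libraries were also exposed to auranofin for 1 h, at 0.1 µM by the labels and 0.3 µM by the study text. Each of the 4 groups has 2 libraries, and no source used here says whether they are separate mice or cultures, so a p-value measures only the spread between these libraries. No resting macrophages and no IL-4-treated macrophages were among the samples, so neither table shows how far LPS or IL-4 moved a gene.

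The tables hold FPKM, that is, fragments scaled to transcript length and to the size of the library. They give no counts, and steps in the low values put the depth at an estimated 29800000 to 39300000 fragments per AHSC library and 27500000 to 34800000 fragments per BMDM library. The AHSC cultures were not pure stellate cells by their transcripts. All 15 macrophage markers of the list used here were at 1 FPKM or more, summing to between 9852 and 10370 FPKM, beside 4014 to 4725 FPKM for 15 stellate cell markers, 2386 to 2599 FPKM for 7 Kupffer cell markers and 508 to 548 FPKM for 15 markers of liver sinusoidal endothelium. In BMDM the same 15 macrophage markers summed to between 12740 and 13530 FPKM and the stellate markers to between 61.5 and 67.4 FPKM. Ecm1 alone held 51.0 to 55.8 FPKM of this stellate sum. In bulk RNA, fewer cells of a type and less RNA per cell cannot be told apart.

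BMDM auranofin replicate 1 stands apart from the other 3 BMDM libraries, and BMDM results are given with and without it. Hmox1, heme oxygenase 1, a common target of electrophilic compounds, was at 82.7 and 86.7 FPKM in the controls, 4403 FPKM in auranofin replicate 1 and 85.3 FPKM in replicate 2. The library labelled auranofin replicate 2 therefore carried a control level of this gene. Of 4245 genes whose mean reached 10 FPKM, 406 to 424 differed 2-fold between auranofin replicate 1 and another BMDM library, against 12 to 16 between the other 3. In AHSC the same gene was at 391 and 368 FPKM in the controls and at 1297 and 1141 FPKM with auranofin.

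In control BMDM, LPS-side genes held the 3 highest levels per length of the 10. Cd40, the receptor for the T cell ligand CD154 (chromosome 2, 165055614 to 165071654 of mm10), led with 1302 ± 1.97 FPKM (SD, n = 2). Nos2, the inducible nitric oxide synthase (chromosome 11, 78920787 to 78960226), followed with 298 ± 3.52 FPKM (SD, n = 2). Below these stood Cd86 (72.7 FPKM; chromosome 16, 36568956 to 36666158), Mrc1 (56.6 FPKM), Il4ra (42.1 FPKM), Chil3 (28.8 FPKM) and Cd80 (18.1 FPKM; chromosome 16, 38457430 to 38495958), as means of the controls. Each of these 7 lay above the next in both control libraries. Arg1, Mgl2 and Retnla formed the bottom of the order, with the ranges of Arg1 and Mgl2 overlapping and Retnla listed at 0 in all 4 libraries.

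In control AHSC the order was different. Mrc1, the mannose receptor CD206, which macrophages and liver sinusoidal endothelial cells both carry (chromosome 2, 14229414 to 14332023), led with 87.6 ± 1.89 FPKM (SD, n = 2). Il4ra, the IL-4 receptor alpha chain (chromosome 7, 125552271 to 125579474), followed with 26.0 ± 0.592 FPKM (SD, n = 2). The costimulatory genes came next, with Cd80 at 6.32, Cd86 at 5.43 and Cd40 at 4.22 FPKM, and then Arg1, arginase 1 (chromosome 10, 24915207 to 24927470), at 3.09 FPKM. Cd80 exceeded Cd86 by 1.16 times in the mean, a gap of the size of their SDs of 0.635 and 0.524 FPKM. Nos2, Mgl2, Chil3 and Retnla were each under 0.25 FPKM in every AHSC control library, and the ranges of Mgl2 and Chil3 overlapped.

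Set side by side, Nos2 had 298 FPKM in control BMDM and 0.217 FPKM in control AHSC, and Cd40 had 1302 and 4.22 FPKM. The tables were normalized separately and the cultures differ in cell type, stimulus and time, so no test was made between them. Arg1 went the other way, with 0.258 FPKM in BMDM and 3.09 FPKM in AHSC, and hepatocytes also make much Arg1. The 9 of 15 hepatocyte markers that the table lists summed to between 110 and 124 FPKM in AHSC, nearly all of it Trf (109 to 121 FPKM), while Alb was at 0.259 to 1.22 FPKM, and their part in the Arg1 level was not tested. Chil3, the chitinase-like protein Ym1 (chromosome 3, 106147554 to 106167564), was at 28.8 FPKM in BMDM and 0.0959 FPKM in AHSC, so the IL-4-side genes did not order the cultures as a block.

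**Figure D1:**
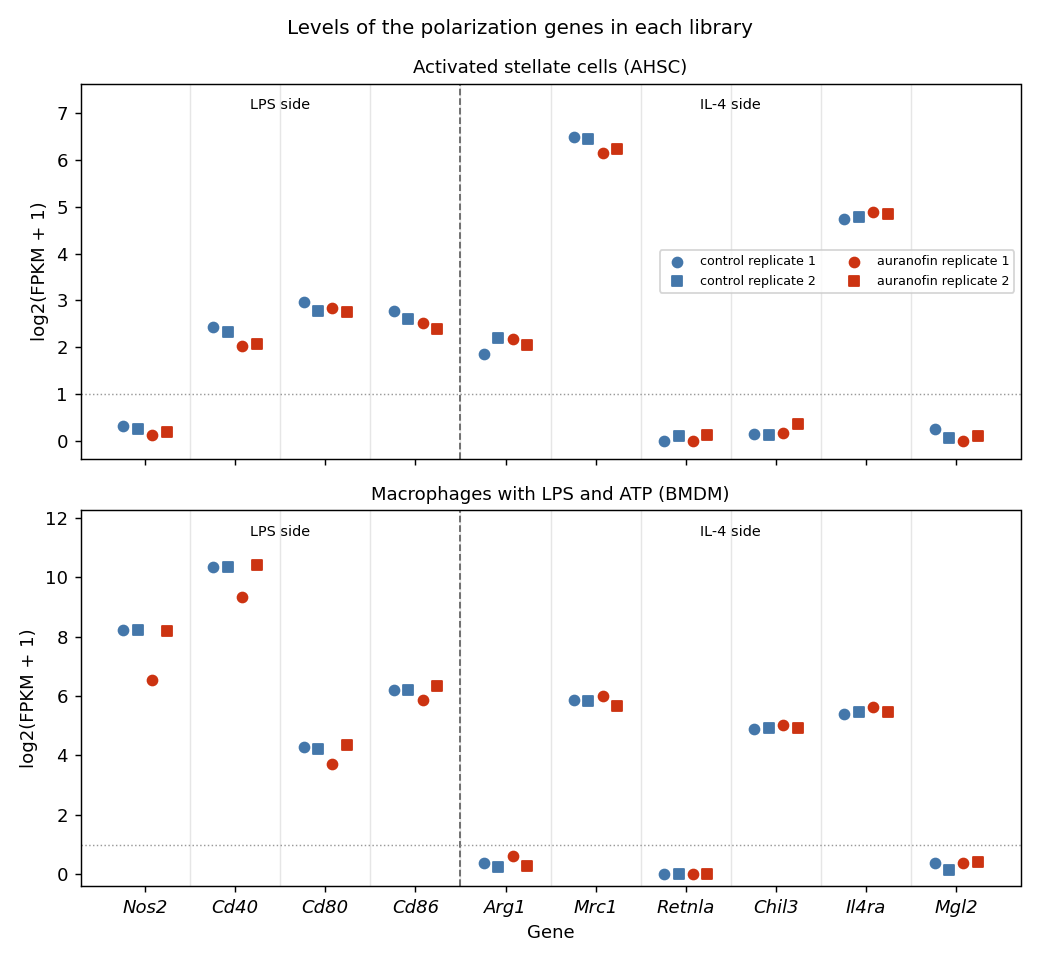
Level of each of the 10 genes in every library, as log2(FPKM + 1), with AHSC above and BMDM below; blue marks are controls, red marks auranofin, circles replicate 1 and squares replicate 2, and the dotted line is 1 FPKM. Nos2 lies below 1 FPKM in AHSC, and Nos2 and Cd40 are at the top of the BMDM panel, where auranofin replicate 1 lies below the other 3 libraries.

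Retnla, the resistin-like molecule FIZZ1 (chromosome 16, 48842609 to 48844461), and Chil3 are textbook IL-4 targets, and Retnla was at or near 0 in both cultures while Chil3 was so in AHSC alone, so the stretches of their promoters that resemble STAT sites are shown. RefSeq promoters of build GRCm38.p6 were matched for 6 of the 10 genes (Mrc1, Chil3, Il4ra, Mgl2, Cd80 and Retnla), and the 250 bases before the start were searched on both strands for TTCNNNNGAA, the spacing that STAT6 prefers, and TTCNNNGAA, the spacing of other STAT proteins. The patterns differ in the length of their spacer, so a match to the former is not a match to the latter. Retnla held the former, 145 bases before its start, at chr16:48842449-48842488 on the plus strand, and Chil3 held the latter, 172 bases before its start, at chr3:106167713-106167751 on the minus strand. Both are written 5′ to 3′ with the matched letters in capitals.
Retnla: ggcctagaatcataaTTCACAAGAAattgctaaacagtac
Chil3: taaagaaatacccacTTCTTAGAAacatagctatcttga
Of 32851 promoters in the table, 5.85% hold TTCNNNNGAA and 7.02% hold TTCNNNGAA in the same window, so a match is common and is given as a description only. Mrc1, Il4ra, Mgl2 and Cd80 held neither.

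The comparison of auranofin with control in AHSC asks whether the polarization genes carried by these liver cultures moved at the low dose. Mrc1 was the single gene of the 10 to pass the test. It had 88.9 and 86.3 FPKM in the controls and 69.5 and 74.2 FPKM with auranofin, without overlap. It fell by 0.28 on the log2 scale (standard error, SE, 0.04), and limma with Benjamini-Hochberg correction gave an adjusted p = 0.0395. The call is close to its threshold, and was lost without auranofin replicate 1 (adjusted p = 0.124) and with the replicate block (adjusted p = 0.0615).

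Genes were tested where their mean reached 1 FPKM, which left 6 of the 10 in AHSC. Of these, 1 was called lower and 0 higher at an adjusted p under 0.05, where 1.09% of the 12149 genes tested were called lower and 1.24% higher. At an unadjusted p under 0.05, 3 of the 6 were lower (Mrc1, Cd40 and Cd86) and 1 was higher (Il4ra), against 9.22% and 8.57% of all genes. Both auranofin libraries lay below both controls in the same 3 genes and above them in Il4ra, a separation that 23.9% and 26.2% of all genes tested also showed.

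On the LPS side, Cd40 was the nearest to a call. It had 4.39 and 4.04 FPKM in the controls and 3.05 and 3.19 FPKM with auranofin, a log2 difference of -0.34 (SE 0.06, limma adjusted p = 0.0649). Cd86, a ligand of the T cell receptors CD28 and CTLA-4, had 5.80 and 5.06 FPKM against 4.71 and 4.22 FPKM. Its log2 difference was -0.23 (SE 0.08, limma adjusted p = 0.218), and its groups did not overlap either.
Cd80, the other ligand of CD28 and CTLA-4, had 6.77 and 5.87 FPKM in the controls and 6.10 and 5.69 FPKM with auranofin. These groups overlapped, and the log2 difference was -0.08 (SE 0.08, limma adjusted p = 0.613). Nos2 was too low to be tested. It had 0.247 and 0.188 FPKM in the controls and 0.0966 and 0.140 FPKM with auranofin, or an estimated 26, 21, 10 and 19 fragments.

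On the IL-4 side, Il4ra was at 25.6 and 26.4 FPKM in the controls and at 28.6 and 27.8 FPKM with auranofin. The log2 difference was 0.11 (SE 0.04, limma adjusted p = 0.229), with both auranofin libraries above both controls. Arg1 had 2.62 and 3.56 FPKM against 3.51 and 3.12 FPKM. Its auranofin libraries lay inside the range of its controls, and its log2 difference of 0.09 (SE 0.12) had a limma adjusted p = 0.759.
The other 3 genes were not tested. Retnla was listed at 0 in both libraries numbered 1, and at 0.0760 and 0.0850 FPKM in the second libraries of control and auranofin. Mgl2, a macrophage galactose-type lectin (chromosome 11, 70130125 to 70137542), had 0.185 and 0.0342 FPKM in the controls, 0 in auranofin replicate 1 and 0.0701 FPKM in replicate 2. Chil3 had 0.103 and 0.0885 FPKM in the controls and 0.124 and 0.289 FPKM with auranofin, or an estimated 5, 4, 6 and 17 fragments.

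Chil3 is also made by neutrophils and their precursors, and markers of these cells moved with its highest value. The 10 neutrophil and immature myeloid markers summed to 21.1 and 9.13 FPKM in the AHSC controls, 8.91 FPKM in auranofin replicate 1 and 90.1 FPKM in replicate 2. S100a9 alone was at 10.8, 2.23, 2.43 and 44.7 FPKM, and Retnlg, a paralog of Retnla, at 1.496, 0.288, 0.321 and 11.1 FPKM. Mpo and Elane were at or near 0 in all 4 libraries. The part of these cells in the Chil3 value was not tested.

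Stellate, endothelial and macrophage markers of these cultures were mostly lower beside Mrc1, and Kupffer cell markers were not. The 7 Kupffer cell markers summed to 2395 and 2386 FPKM in the controls and 2599 and 2463 FPKM with auranofin. Cd5l alone held 1474 and 1499 FPKM of that sum in the controls and 1657 and 1577 FPKM with auranofin. Of the 5 tested, 3 were higher and 2 lower. Clec4f was called higher, while Folr2 had 171 and 184 FPKM in the controls and 152 and 154 FPKM with auranofin. Over all 12149 genes tested, 5803 were lower, 1.09% were called lower and 9.22% were lower at an unadjusted p under 0.05. Of 14 stellate cell markers tested, 11 were lower, 8 of them at an unadjusted p under 0.05, with a median log2 difference of -0.18, and the 15 listed summed to 4588 and 4725 FPKM in the controls and 4014 and 4117 FPKM with auranofin. Acta2, smooth muscle actin, was called, with 956 and 965 FPKM in the controls and 743 and 737 FPKM with auranofin (log2 fold change -0.38, limma adjusted p = 0.00719). Of the 14 tested genes of liver sinusoidal endothelium, 2 were called lower. Stab2, a scavenger receptor of these cells, had 20.7 and 21.5 FPKM in the controls and 15.9 and 16.3 FPKM with auranofin (limma adjusted p = 0.0169), and Clec4g, a lectin of the same cells, had 20.2, 20.4, 15.2 and 14.2 FPKM (limma adjusted p = 0.0130). The call of Stab2 was lost without auranofin replicate 1 (adjusted p = 0.0601). The median log2 difference over the 14 genes was -0.06, with 5 higher and 9 lower, and the 15 listed genes summed to 548 and 527 FPKM in the controls and 536 and 508 FPKM with auranofin. Of the macrophage markers, 14 of 15 were lower but 0 were called by limma, with 3 lower at an unadjusted p under 0.05 and a median of -0.05. Mrc1 as a share of the summed macrophage markers was 0.878% and 0.832% in the controls and 0.706% and 0.745% with auranofin. Lyz2 alone held 5379 to 5554 FPKM of that sum in the 4 libraries. The part of these cell types in the Mrc1 difference, and in the other AHSC differences, was not tested.

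Of 8 relatives of the members tested in AHSC, limma called 0, with 1 higher and 3 lower at an unadjusted p under 0.05. In these directions 8.57% and 9.22% of all genes tested passed that threshold. Il2rg, the common gamma chain that pairs with Il4ra, had 17.7 and 18.0 FPKM in the controls and 15.3 and 15.8 FPKM with auranofin (limma adjusted p = 0.0877), and Il13ra1, its partner for IL-13, had 11.9, 11.4, 10.8 and 10.5 FPKM (limma adjusted p = 0.264). Nos3, the endothelial nitric oxide synthase, had 4.09 and 4.04 FPKM against 5.11 and 4.70 FPKM (limma adjusted p = 0.149). The mannose receptor relatives Mrc2 (22.4, 22.4, 21.8 and 22.2 FPKM), Pla2r1 (6.63, 6.45, 5.71 and 5.77 FPKM) and Ly75 (2.40, 2.32, 2.32 and 2.18 FPKM) had adjusted p-values of 0.775, 0.182 and 0.757 from limma. Arg2, the mitochondrial arginase, had 1.90, 1.37, 1.77 and 1.88 FPKM (limma adjusted p = 0.665).

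**Figure D2:**
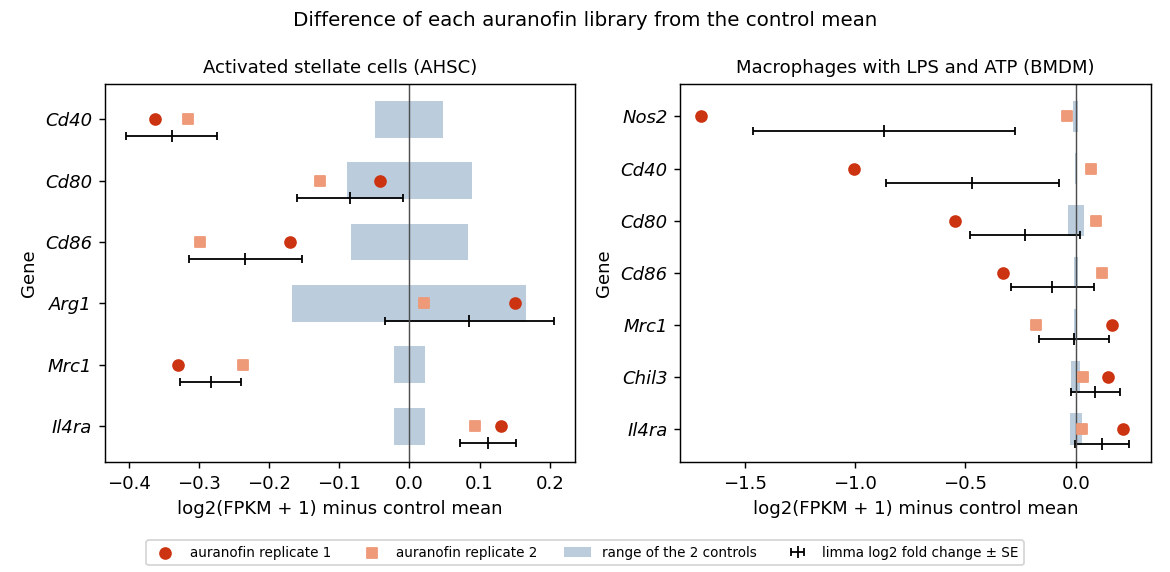
Difference of each auranofin library from the control mean in log2(FPKM + 1) for the tested genes, with AHSC on the left and BMDM on the right on separate scales; the bar spans the 2 controls and the black line is limma's log2 fold change with its SE. In AHSC the libraries of Cd40, Cd86 and Mrc1 lie together to the left, while in BMDM auranofin replicate 1 is at -1.70 for Nos2 and replicate 2 at -0.04.

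Beyond the 10 genes, LPS and interferon type genes in AHSC were mostly lower with auranofin. Of 30 tested, 22 were lower and 8 higher, 2 were called lower and 0 higher at an adjusted p under 0.05, and 15 were lower and 1 higher at an unadjusted p under 0.05. Of all 12149 genes tested, 5803 were lower and 6346 higher, and 1.09% were called lower and 1.24% higher. At the unadjusted threshold 9.22% were lower and 8.57% higher. The median log2 difference of the 30 genes was -0.18, against 0.00 over all genes tested. Cxcl10, an interferon-induced chemokine, had 13.9 and 12.8 FPKM in the controls and 7.74 and 7.82 FPKM with auranofin, and fell by 0.70 on the log2 scale (SE 0.05, limma adjusted p = 0.00565). Tnf, the cytokine tumour necrosis factor, had 11.02 and 10.05 FPKM against 7.97 and 8.04 FPKM, and fell by 0.36 (SE 0.06, limma adjusted p = 0.0429). The call of Cxcl10 held with each library left out, but that of Tnf was lost without control replicate 1 (adjusted p = 0.0526), auranofin replicate 1 (0.124) or auranofin replicate 2 (0.0881), and with the replicate block (0.0631).

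IL-4 type genes gave 0 calls by limma's adjusted p among 21 tested in AHSC, with 8 higher and 13 lower and a median of -0.03. At an unadjusted p under 0.05, 2 were higher and 5 lower, against 8.57% and 9.22% of all genes tested. Socs1, a brake on JAK signalling, had 1.06 and 1.13 FPKM in the controls and 1.33 and 1.69 FPKM with auranofin (limma adjusted p = 0.263), and Mmp12, macrophage elastase, had 901, 881, 960 and 993 FPKM (limma adjusted p = 0.142). On the lower side, the collagenase Mmp13 had 33.4, 35.6, 26.7 and 31.1 FPKM (limma adjusted p = 0.176) and Jak3, the kinase bound to the common gamma chain, had 5.81, 5.61, 4.33 and 5.07 FPKM (limma adjusted p = 0.192).

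Genes of arginine use and of biopterin, the cofactor of nitric oxide synthase, were lower in 17 of 26 in AHSC, with 2 called lower, 0 called higher and a median of -0.06. Of all 12149 genes tested, 5803 were lower and 1.09% were called lower. Slc7a2, which carries arginine into macrophages, had 14.5 and 14.8 FPKM in the controls and 10 and 11.1 FPKM with auranofin, and fell by 0.44 on the log2 scale (SE 0.06, limma adjusted p = 0.0269). Odc1, ornithine decarboxylase, the entry to polyamines, had 74.8 and 74.7 FPKM against 63.1 and 60.5 FPKM, and fell by 0.27 (SE 0.04, limma adjusted p = 0.0269). Without auranofin replicate 1 neither call held (limma adjusted p = 0.0536 for Slc7a2 and 0.0583 for Odc1), and Odc1 also lost its call without auranofin replicate 2 (0.0848). Of 18 genes of the CD28 ligand family and of CD40 signalling, 13 were lower and 1 was called, with a median of -0.09. That gene was Bcl2a1d, a survival gene downstream of NF-κB, with 41.7 and 41.6 FPKM in the controls and 29.4 and 32.0 FPKM with auranofin (log2 fold change -0.43, limma adjusted p = 0.0171). The call was lost with no filter on low values (adjusted p = 0.0779) and without limma's trend (0.0556). Bcl2a1d has near-identical copies, and its reads may be split among them.

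The comparison of auranofin with control in BMDM asks whether 1 h of the compound altered the LPS program that was already running. Over all 4 libraries it gave 0 calls among the 7 members tested, by limma at an adjusted p under 0.05 in either direction, and also 0 at an unadjusted p under 0.05. Of all 9232 genes tested, 0.0108% were called higher and 0.0% lower at the adjusted threshold, and 0.314% and 0.217% at the unadjusted threshold. The auranofin libraries differed from each other far more than the controls did, for example with an SD of 140 FPKM against 3.52 FPKM for Nos2 (n = 2 each). The SEs of the 7 members ran from 0.11 to 0.59 on the log2 scale, so the lack of a call does not show that they kept their level.

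Nos2 had 295 and 300.2 FPKM in the controls, 91.2 FPKM in auranofin replicate 1 and 289 FPKM in replicate 2. The first auranofin library was thus at 0.306 times the control mean and the second at 0.972 times, with both libraries below both controls. The log2 difference over all 4 libraries was -0.87 (SE 0.59, limma adjusted p = 0.721), and without auranofin replicate 1 it was -0.04 (limma adjusted p = 0.747).
Cd40 had 1303 and 1300.5 FPKM in the controls, 649 FPKM in auranofin replicate 1 and 1364 FPKM in replicate 2. The auranofin libraries lay on either side of the controls. The log2 difference was -0.47 (SE 0.39, limma adjusted p = 0.721) with all libraries and 0.07 (limma adjusted p = 0.593) without auranofin replicate 1.

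Cd80 and Cd86 showed the same split in smaller size. Cd80 had 18.6 and 17.6 FPKM in the controls, 12.04 FPKM in auranofin replicate 1 and 19.3 FPKM in replicate 2. Its log2 difference was -0.23 (SE 0.25, limma adjusted p = 0.723) with all libraries and 0.09 (limma adjusted p = 0.665) without auranofin replicate 1. Cd86 had 72.2 and 73.2 FPKM against 57.5 and 79.1 FPKM. Its log2 difference was -0.11 (SE 0.19, limma adjusted p = 0.802) with all libraries and 0.12 (limma adjusted p = 0.551) without auranofin replicate 1.

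The 3 IL-4-side genes tested in BMDM each lay above both controls in auranofin replicate 1. In that library the median over all genes tested also lay 0.18 above the control mean on the log2 scale. With each library centred on its median, the log2 difference over all 4 libraries was 0.03 for Il4ra and -0.10 for Mrc1. Il4ra had 41.3 and 42.9 FPKM in the controls, 48.9 FPKM in auranofin replicate 1 and 42.9 FPKM in replicate 2 with the latter inside the range of the controls (log2 difference 0.12, SE 0.12, limma adjusted p = 0.721; 0.03 and adjusted p = 0.878 without auranofin replicate 1). Mrc1 had 56.8 and 56.3 FPKM against 63.5 and 49.8 FPKM, with the auranofin libraries on either side of the controls. Its log2 difference was -0.01 (SE 0.16, limma adjusted p = 0.981), and -0.18 (limma adjusted p = 0.541) without auranofin replicate 1.
Chil3 had 28.4 and 29.1 FPKM in the controls and 31.9 and 29.4 FPKM with auranofin, so both auranofin libraries lay above both controls. The log2 difference was 0.09 (SE 0.11, limma adjusted p = 0.738), 0.03 (limma adjusted p = 0.855) without auranofin replicate 1, and -0.0037 with each library centred on its median. The 10 neutrophil and immature myeloid markers also summed higher with auranofin, to 282 and 295 FPKM against 209 and 218 FPKM in the controls, and their part in the Chil3 value was not tested.

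Nos2 and Chil3 were the members whose groups did not overlap, 1 lower and 1 higher of 7, where 12.6% and 26.3% of all genes tested were separated in these directions. The remaining 3 genes were not tested in BMDM. Arg1 had 0.318 and 0.197 FPKM in the controls and 0.539 and 0.206 FPKM with auranofin, or an estimated 14, 8, 28 and 10 fragments. Mgl2 had 0.314, 0.117, 0.312 and 0.332 FPKM, with overlapping groups, and Retnla was listed at 0 throughout. Reads can be shared for 2 of the 10 genes: of the 75-base windows of their annotated transcripts, 13.7% of those of Chil3 also occur in Chil4 or Gm6522 and 7.95% of those of Mgl2 in Clec10a, while the other 8 genes shared none. Clec10a itself was at 1.25, 1.35, 1.68 and 1.19 FPKM in BMDM. Chil1, a relative of Chil3, was at 1.59, 2.14, 1.64 and 1.91 FPKM there. The mannose receptor relatives Ly75 (3.60, 3.65, 1.48 and 2.98 FPKM) and Pla2r1 (2.74, 2.67, 1.37 and 2.59 FPKM) were lowest in auranofin replicate 1, and limma called 0 of 8 relatives at either threshold. Without that library the median log2 difference of the 8 was -0.02, against 0.00 over all genes tested.

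Set against both controls on its own, auranofin replicate 1 differed from them in 6 of the 7 tested members at an adjusted p under 0.05, with 4 lower (Nos2, Cd40, Cd80 and Cd86) and 2 higher (Il4ra and Mrc1). The adjusted p from limma was 5.43e-05 for Nos2, 8.51e-05 for Cd40, 0.00157 for Cd80, 0.00255 for Cd86, 0.0166 for Il4ra, 0.0243 for Mrc1 and 0.0528 for Chil3. This compares 1 library with 2 and assumes that it varies like the controls, and by the same measure 20.0% of all genes were lower and 44.9% higher, with a median log2 difference of 0.18. Auranofin replicate 2 against both controls gave 0 of the 7 in either direction, where 0.0758% of all genes were lower and 0.065% higher. At an unadjusted p under 0.05 it had Mrc1 lower and Cd86 higher, where 4.02% of all genes were lower and 4.92% higher.
Nos2 and Cd40 were at least 2-fold below the control mean in auranofin replicate 1 and 0 members were 2-fold above it on the log2(FPKM + 1) scale, where 2.62% of all genes tested were 2-fold below and 5.22% above.

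Within a library, the log2 ratio of Nos2 to Arg1 sets a gene of the LPS side against a gene of the IL-4 side. In BMDM, Arg1 was at 0.197 to 0.539 FPKM. Its term is therefore mostly the added 1 FPKM, and the scaling of the library is mostly not cancelled. The ratio there was 7.81 and 7.98 in the controls, 5.90 in auranofin replicate 1 and 7.91 in auranofin replicate 2, a difference of -0.99 (exact permutation test, two-sided p = 0.667). Without auranofin replicate 1 the difference was 0.02. With 0.1 FPKM added, these differences were -1.2 and 0.16. The log2 ratio of Cd86 to Mrc1 was 0.34 and 0.37 in the controls and -0.14 and 0.66 with auranofin, a difference of -0.10 (exact permutation test, two-sided p = 1.0). This difference was 0.30 without auranofin replicate 1.
In AHSC the Nos2 to Arg1 ratio was -1.54 and -1.94 in the controls and -2.04 and -1.86 with auranofin, a difference of -0.21 (exact permutation test, two-sided p = 0.667). Nos2 is so low there that the added 1 FPKM sets this value: with 0.1 FPKM added the difference was -0.65 and the groups did not overlap (at the smallest p that the exact permutation test allows), and with a library left out it ran from -0.41 to -0.0064 at the added 1 FPKM. The Cd86 to Mrc1 ratio was -3.73 and -3.85 against -3.63 and -3.85 (difference 0.05, exact permutation test, two-sided p = 0.667). With 2 libraries against 2, this test cannot give a p below 1 in 3, and ratios rest on log2(FPKM + 1).

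Genes of the LPS response also differed between the auranofin libraries of BMDM. The pathway genes named for BMDM from here on were chosen after their values were seen. Of 39 LPS and interferon type genes tested, 0 were called by limma with all libraries, with 0 also at an unadjusted p under 0.05. Without auranofin replicate 1, their median log2 difference was 0.01, against 0.00 over all genes tested. In auranofin replicate 1, 38 of them were below the control mean with a median log2 difference of -0.61, and 9 (23.1%, against 2.62% of all genes) were at least 2-fold lower and 0 at least 2-fold higher. In auranofin replicate 2, 17 were below the control mean and the median was 0.01, with 0 at 2-fold in either direction. Over all 9232 genes tested, 2981 and 4438 were below the control mean in these libraries, and the medians were 0.18 and 0.00.

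The 9 genes were cytokines (Il1a, Il1b, Il12a and Il12b), chemokines of the interferon response (Cxcl10 and Cxcl11), Irf8, Gbp2 and Fpr2. Cxcl11 had 107 and 101 FPKM in the controls, 23.5 FPKM in auranofin replicate 1 and 118 FPKM in replicate 2. Il12b, a subunit of IL-12 and IL-23, had 66.9, 88.2, 18.0 and 66.9 FPKM. Il1b had 1593 and 1708 FPKM in the controls, 796 FPKM in auranofin replicate 1 and 1739 FPKM in replicate 2, while Tnf was at 2087, 2001, 1790 and 1959 FPKM.

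**Figure D3:**
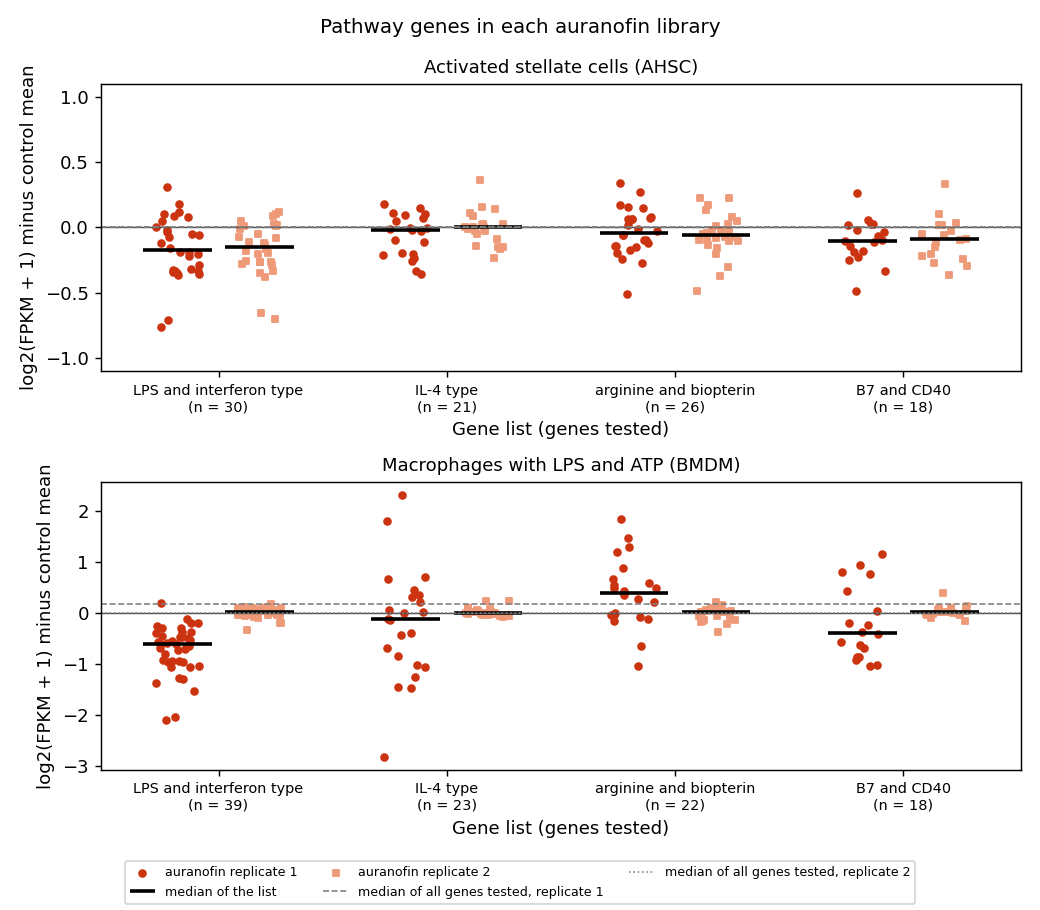
Difference of each auranofin library from the control mean in log2(FPKM + 1) for the tested genes of 4 lists, with AHSC above and BMDM below; each mark is a gene, circles are replicate 1, squares are replicate 2, black bars are list medians and grey lines the medians of all genes tested. In BMDM the LPS and interferon type genes of replicate 1 have a median of -0.61 and those of replicate 2 a median of 0.01, while in AHSC the medians are -0.17 and -0.15.

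IL-4 type genes did not move as a block in BMDM auranofin replicate 1. Of 23 tested, 0 were called by limma with all libraries at either threshold. Without that library their median log2 difference was 0.00, and that over all genes tested was 0.00. In that library 6 (26.1%, against 2.62% of all genes) were at least 2-fold lower and 2 (8.70%, against 5.22%) at least 2-fold higher. The 6 were Ccl22, Ccl17, Mmp13, Tyk2, Socs1 and Il13ra1, of which Ccl22, Mmp13 and Socs1 are known to answer LPS as well. Ccl22, a chemokine for regulatory T cells, had 190 and 209.8 FPKM in the controls, 27.6 FPKM in auranofin replicate 1 and 235 FPKM in replicate 2.
The other two were Irs2, an adaptor of insulin and IL-4 receptors, with 3.12, 2.99, 19.0 and 2.87 FPKM, and Kdm6b, a histone demethylase, with 7.52, 8.45, 30.2 and 7.995 FPKM. Receptor partners of Il4ra were lower in that library, with Il13ra1 at 16.2, 15.9, 7.41 and 16.1 FPKM and Il2rg at 246, 252, 138 and 265 FPKM. Stat6 was at 39.2, 40.5, 40.6 and 39.5 FPKM.

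Of 22 arginine and biopterin genes tested in BMDM, 0 were called by limma with all libraries at either threshold. With auranofin replicate 1 left out, their median log2 difference was 0.02, against 0.00 over all genes tested. In auranofin replicate 1, 4 (18.2%, against 5.22% of all genes) were at least 2-fold higher and 1 (4.55%, against 2.62%) at least 2-fold lower. The median of the 22 genes was 0.39 there, and 8 were below the control mean. Over all 9232 genes tested the median was 0.18, and 2981 were below the control mean. Odc1 had 89.5 and 84.3 FPKM in the controls, 312 FPKM in auranofin replicate 1 and 87.6 FPKM in replicate 2. Smox, spermine oxidase, had 27.3, 28.5, 79.1 and 29.4 FPKM, and Azin1, which protects ornithine decarboxylase from its inhibitor, had 43.1, 41.8, 98.1 and 38.6 FPKM.
Arg2 had 1.95, 2.07, 6.32 and 1.59 FPKM, and was highest in auranofin replicate 1. Per length it lay above Arg1 (0.318, 0.197, 0.539 and 0.206 FPKM) in all 4 libraries, not only in that library. Gch1, the entry enzyme of biopterin synthesis, had 97.2, 94.4, 116 and 98.9 FPKM and did not share the low value of Nos2. Of the arginine carriers, Slc7a1 was above both controls in that library (24.1, 23.9, 28.0 and 23.0 FPKM), while lower values stood in Slc7a2 at 82.8, 82.7, 52.6 and 76.3 FPKM and Slc7a7, the gene at least 2-fold lower, at 27.6, 28.9, 13.3 and 29.1 FPKM.

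**Figure D4:**
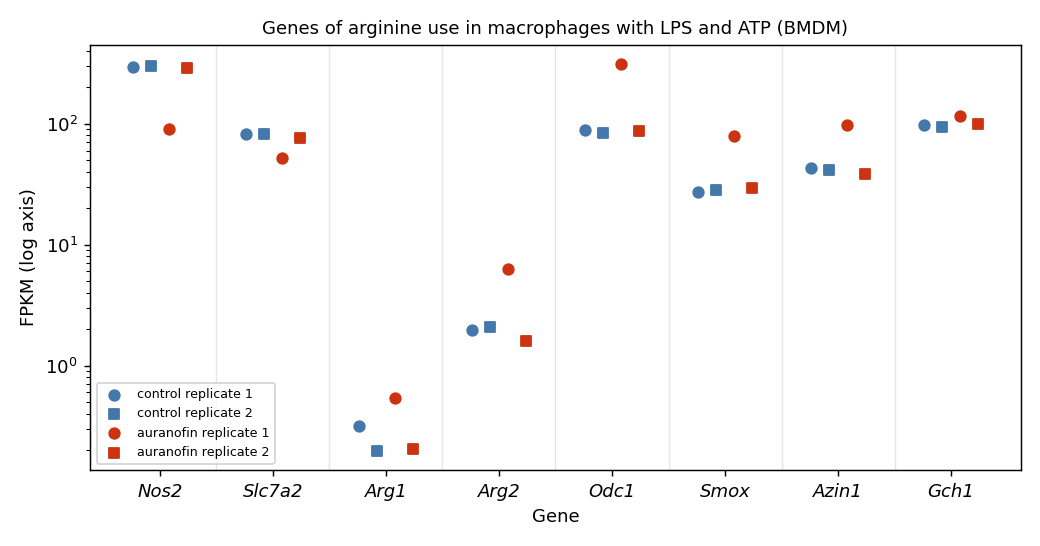
FPKM of genes of arginine use in each BMDM library, on a log axis; blue marks are controls, red marks auranofin, circles replicate 1 and squares replicate 2. Auranofin replicate 1 is the lowest library for Nos2 (91.2 FPKM) and Slc7a2 (52.6 FPKM) and the highest for Arg1 (0.539 FPKM), Arg2 (6.32 FPKM), Odc1 (312 FPKM), Smox (79.1 FPKM) and Azin1 (98.1 FPKM).

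Signalling genes below CD40 also divided in that library. Of 18 genes of CD28 ligands and CD40 signalling tested in BMDM, 12 were below the control mean in auranofin replicate 1, with a median of -0.39. Over all 9232 genes tested, 2981 were below it there, with a median of 0.18. In auranofin replicate 2 these medians were 0.02 and 0.00. In auranofin replicate 1, 2 of the 18 (11.1%, against 2.62% of all genes) were at least 2-fold lower and 1 (5.56%, against 5.22%) at least 2-fold higher. Traf1 had 123 and 131 FPKM in the controls, 62.5 FPKM in auranofin replicate 1 and 132 FPKM in replicate 2, and Birc3 had 78.2, 80.3, 38.2 and 78.6 FPKM. Traf3, an inhibitor of the noncanonical NF-κB route, was the gene at least 2-fold higher, with 4.03, 4.25, 10.4 and 4.07 FPKM. Cd274, which encodes PD-L1, had 999 and 970 FPKM in the controls and 764 and 954 FPKM with auranofin. With all libraries, limma called 0 of the 18 at either threshold.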

How the data were processed

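RNA sequencing of 8 mouse libraries was analysed, 2 for each of 4 groups. The authors deposited an FPKM table per cell type, made with mm10 and RefSeq transcripts, and the submitters' processing notes name CASAVA, FastQC 0.11.7, Trimmomatic 0.38, HISAT2 2.1.0 and StringTie 1.3.4d. FPKM removes transcript length and library size, but a rise of abundant transcripts lowers all others, and reads shared by paralogs may be split. Counts were not given, so depth was estimated from steps in values under 0.2 FPKM and may be off by a whole factor.

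Each table was fitted alone in limma 3.58.1 (R 4.3.3; lmFit, eBayes with trend) on log2(FPKM + 1) where the mean reached 1 FPKM, with Benjamini-Hochberg adjustment over all of them. Fold changes on this scale understate the change of low genes. Ratios were compared by exact permutation. The fit was tested on simulated data with 200 genes changed 2-fold. At an adjusted p under 0.05 it recovered most of them with the spread of AHSC, but none with the spread of BMDM. The simulated spread of a gene was equal in every library and independent of other genes. In the BMDM data, by contrast, auranofin replicate 1 stands apart, so the simulation does not match them in this respect. No library was a copy of another. The members, pathway lists and marker lists were chosen with earlier results of these data known, and are described by counts and medians without a test over the list. All 10 members are named. From each pathway list the genes named for AHSC were at most 4 called in each direction. With none called, they were at most 2 in each direction by size of change at an unadjusted p under 0.05. The pathway genes named for BMDM were chosen after their values were seen. Relatives of the members were named where their mean was at least 1 FPKM. Coordinates came from RefSeq on GRCm38.p6, transcripts from GENCODE M21. Python 3.11.15, numpy 2.4.6 and pandas 2.3.3 were used. Alternatives were a pseudocount of 0.1, no filter, a mean of at least 5 FPKM, quantile normalization, median centring, eBayes without trend, the replicate block, and each library left out.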

Additional observations from a re-analysis of the deposited data

How the results depend on the processing

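With the replicate block, Mrc1 in AHSC kept its log2 fold change of -0.28 but not its call (adjusted p = 0.0615), so 0 members were called. The call was also lost with no filter (-0.28, adjusted p = 0.121), without trend (-0.28, adjusted p = 0.0979) and with quantile normalization (-0.30, adjusted p = 0.0533). The cause was not tested. Of the 10 other AHSC genes of the lists that were called, Cxcl10 alone kept its call with no filter (0.0418, others 0.0632 to 0.147), and Cxcl10, Acta2, Clec4g and Stab2 kept theirs without trend (others 0.0556 to 0.0979). With each library left out, Mrc1 ranged from -0.33 to -0.24 and the members called from 0 to 1. Genes called in AHSC, 283 in the report's setting, were 49 with no filter, 129 without trend and 177 to 493 with a library left out. In BMDM, 1 gene was called in the report's setting, 0 with no filter or quantile normalization, 2 without trend, and 1 to 5997 with a library left out, with 0 to 6 members. BMDM auranofin replicate 1 decides the upper ends of these ranges.

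Signs turned in Chil3 in BMDM with median centring (-0.0037), and when a library was left out. The ranges then were -0.0812 to 0.25 for Arg1 and -0.17 to 0.004 for Cd80 in AHSC, and -0.18 to 0.16 for Mrc1, -0.33 to 0.12 for Cd86, -0.55 to 0.0903 for Cd80 and -1.004 to 0.0677 for Cd40 in BMDM. For the log2 ratios they were -0.0606 to 0.16 (Cd86 to Mrc1 in AHSC), -1.99 to 0.0190 (Nos2 to Arg1 in BMDM) and -0.50 to 0.30 (Cd86 to Mrc1 in BMDM). Same-numbered libraries deviated together with a correlation of 0.109 in AHSC and -0.0551 in BMDM, so the numbers are not taken to pair cultures. With the replicate block the genes called numbered 282 in AHSC and 1 in BMDM. Depth limits Nos2, Retnla, Chil3 and Mgl2 in AHSC and Arg1 and Mgl2 in BMDM, which rest on an estimated 0 to 28 fragments in each library.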

Other observations

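In AHSC, Siglecf, a lectin of eosinophils and of some tissue macrophages, had 5.40 and 5.71 FPKM in the controls and 2.75 and 3.57 FPKM with auranofin. It fell by 0.66 on the log2 scale (SE 0.10, limma adjusted p = 0.0395), a call that was lost with no filter on low values (adjusted p = 0.147) and without limma's trend (0.0772). The eosinophil genes Epx and Prg2 were under 0.25 FPKM in all 4 libraries. Of the Kupffer cell markers, 1 of 5 tested was called higher and 0 lower, against 1.24% and 1.09% of all genes tested. Clec4f had 58.6 and 59.2 FPKM in the controls and 73.5 and 69.1 FPKM with auranofin, a call that was lost without auranofin replicate 1 (limma adjusted p = 0.129) and with the replicate block (0.0530), while Timd4, too low to be tested, had 0.568, 0.610, 0.262 and 0.290 FPKM.

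Retnlg, a relative of Retnla that neutrophils make, was highest in auranofin replicate 2 of both tables. In BMDM it had 2.52 and 5.10 FPKM in the controls, 4.56 FPKM in auranofin replicate 1 and 16.1 FPKM in replicate 2. S100a8 had 54.9 and 58.5 FPKM in the BMDM controls and 85.5 and 81.0 FPKM with auranofin, so both auranofin libraries lay above both controls in a gene that did not divide them. Of all genes tested in BMDM, 26.3% showed this separation. All 7 tested neutrophil and immature myeloid markers of BMDM were higher with auranofin, 3 of them at an unadjusted p under 0.05 and 0 at an adjusted p under 0.05 by limma. Of all 9232 genes tested, 6102 were higher, and 0.314% of the 9232 were higher at the unadjusted threshold. The median log2 difference of the 7 markers was 0.26 in auranofin replicate 1 and 0.41 in replicate 2, against 0.18 and 0.00 over all genes tested. These genes were named after their values were seen.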
